A study of Mus musculus with 24 samples.

Results

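Bhmt, Acox2, Pla2g5 and Lbp, which encode enzymes of methyl group and lipid metabolism and a protein of the acute phase, were measured in the hippocampus of neonatal mice. They are 4 of the 36163 gene names on the mRNA arrays and are measured by 7 probesets, 3 for Bhmt, 2 for Pla2g5 and 1 each for Acox2 and Lbp, out of 55681. The genes were chosen by their own measured values, because each was lower in the high-dose morphine group than in controls. What that contrast shows for them is therefore a description, and no test of it is given.

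The animals were C57BL/6 pups labelled male and killed on postnatal day 9 (P9), and each array held the RNA of both hippocampi of 1 pup. Treatment ran from P5. The MS2 group received injections of morphine at 2 mg/kg and the MS5 group at 5 mg/kg. Both groups were also kept away from the dam for part of the day. As a model of apnea they breathed pure nitrogen and then pure oxygen for short spells. The Con group was untreated and was handled as little as possible, so a contrast with Con spans morphine, injection, the gases and stress together. Each group had 5 arrays. The groups were spread over 2 slides, with 3 Con, 3 MS2 and 2 MS5 arrays on slide 1 and 2 Con, 2 MS2 and 3 MS5 arrays on slide 2.

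Betaine-homocysteine methyltransferase, the product of Bhmt, uses betaine to turn homocysteine back into methionine and is best known from liver and kidney. Acox2 encodes the peroxisomal acyl-CoA oxidase that acts on branched-chain fatty acids and on bile acid intermediates. Pla2g5 encodes a secreted phospholipase A2, which frees fatty acids such as arachidonic acid from membrane phospholipids. The lipopolysaccharide binding protein Lbp is a secreted protein that carries bacterial lipopolysaccharide to CD14 and on to the TLR4 receptor. In brain, the ventricles beside the hippocampus hold the choroid plexus, a secretory epithelium, and are lined by ciliated ependymal cells. RNA of either tissue can enter a hippocampal dissection.

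The scanner called 74.5 to 79.0% of spots well above background in Con, 67.1 to 77.5% in MS2 and 72.5 to 78.8% in MS5, and 0 spots were saturated. Of the 7 member probesets 6 were well above background on all 15 arrays and 1, a Bhmt probeset, on 14. The dimmest array was MS2 replicate 5, with a median spot signal of 58.2 against 121 to 154 on the others. All 10 hippocampal neuron markers were well above background. MS2 replicate 4 stood apart in that list, with 9 of the 10 markers below every other array, for example Neurod6 at 10.02 against at least 13.03 (log2 level). MS5 replicate 9, labelled male, carried Xist at 11.34 against 5.89 to 6.08 on the 14 other arrays. Values with and without these 2 arrays are given below.

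Over all probesets, 0.183% were lower and 0.0449% higher in MS5 than in Con at the threshold of the study's methods, which asks for an unadjusted p under 0.05 and more than a 1.5-fold change. No probeset passed an adjusted p of 0.05, whereas 2176 had an unadjusted p under 0.05 in limma. Of the 7 member probesets 5 were past the threshold and lower, 2 of Bhmt and 1 of each other gene. The choice of the genes fixes this count. The probesets inside the threshold differed by -0.89 to -1.04 (log2), and the 2 outside it by -0.51 (Bhmt, A_55_P2103963) and -0.17 (Pla2g5, A_51_P207892).

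Bhmt was read by 3 probes on the minus strand of chromosome 13. In the mm9 coordinates of the scanner files they lie at chr13:94386981-94387040 (A_55_P2105181), at chr13:94386856-94386915 (A_55_P2105180) and, for A_55_P2103963, at chr13:94386836-94386840, a listing that covers 5 bases only. Their listed starts in the transcript are positions 1876, 2001 and 1426 in the same order. The transcript listing thus puts A_55_P2103963 first, whereas the genome listing puts it last along the minus strand. Whether each probe lies in coding or untranslated sequence was not taken from an annotation. The sequences show how the probes differ. One ends in the letters TAG, in capitals, a stop codon of the only frame open through the rest of the probe, and 30 bases of another hold the letters AATAAA of a polyadenylation signal, which 10.1% of all probes contain.
A_55_P2103963: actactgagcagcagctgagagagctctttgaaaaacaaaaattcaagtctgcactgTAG
A_55_P2105180, bases 24 to 53: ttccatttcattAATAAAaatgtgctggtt

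At A_55_P2105180, the Bhmt probeset with the highest mean, Con replicates 15, 16, 17, 18 and 19 read 7.80, 8.78, 9.19, 8.00 and 8.73 (log2 level). MS2 replicates 1, 3, 4, 5 and 7 read 8.81, 8.43, 7.92, 8.15 and 8.32. MS5 replicates 8, 9, 12, 13 and 14 read 8.01, 7.37, 8.21, 7.49 and 6.24. The groups overlapped: MS5 replicates 8 and 12 lay within the range of the controls, and replicates 9, 13 and 14 lay below all 5 of them. The MS5 mean was lower by a log2 difference of -1.04 (SE 0.34, n = 5 per group), or 2.05-fold. MS5 replicate 14 stood at 20.9% of the geometric mean of controls.

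The other Bhmt probesets ordered the arrays in much the same way. Across the 15 arrays the 3 probesets correlated with each other at r = 0.98 to 0.99, and at 0.97 to 0.99 over deviations from the group means. The difference between MS5 and Con was -0.89 (SE 0.29) at A_55_P2105181 and -0.51 (SE 0.17) at A_55_P2103963, whose signal was not well above background in MS5 replicate 14. The size of these differences depended on the scaling. With a normexp offset of 0 in place of 50 the 3 values were -1.43, -1.23 and -1.16, and with the scanner's processed signal they were -1.53, -1.28 and -1.48.

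**Figure D1:**
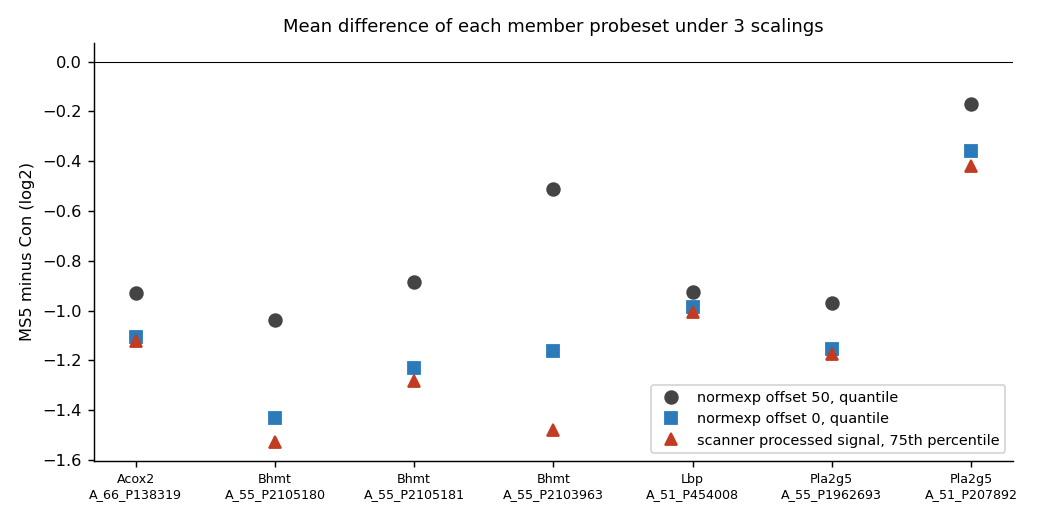
Mean difference between MS5 and Con (log2, vertical axis) for each of the 7 member probesets (horizontal axis) under 3 scalings of the same arrays, 5 per group. All differences are below 0, and the Bhmt probeset A_55_P2103963 moves furthest, from -0.51 to -1.48.

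Acox2 was read by 1 probe, A_66_P138319, on the minus strand at chr14:9058141-9058200 (mm9). Acox2 is among the genes that the study matched to miR-448-5p. The 30 bases of the probe that bear on this are shown beside the mature miR from RefSeq (GRCm38.p6, chrX:147158221-147158242, plus strand). Capitals in the miR mark its seed, bases 2 to 8, and capitals in the probe mark the letters GGATGTT that pair with it.
A_66_P138319, bases 31 to 60: aactggtacatgaaaGGATGTTcatcatat
mmu-miR-448-5p: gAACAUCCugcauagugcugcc

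The letters GGATGTT were present in 260 of the 55681 probes, or 0.467%, and in 1 of the 7 member probes. The match in the Acox2 probe also takes in base 1 of the miR. The complement of the seed of mmu-miR-448-3p was found in 0 of the 7. A match of letters is a description and not a measured binding site.

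Con replicates 15, 16, 17, 18 and 19 read 8.46, 9.42, 9.36, 8.51 and 9.30 for Acox2 (log2 level). MS2 replicates 1, 3, 4, 5 and 7 read 8.99, 9.00, 7.88, 8.83 and 8.44. MS5 replicates 8, 9, 12, 13 and 14 read 8.64, 7.34, 8.79, 8.25 and 7.41. MS5 replicates 9 and 14 were the lowest of the 15 arrays, MS2 replicate 4 came next, and MS5 replicates 8 and 12 lay within the control range. The MS5 mean differed from the Con mean by -0.93 (SE 0.32, n = 5 per group), or 1.90-fold, and MS5 replicates 9 and 14 stood at 31.3 and 32.9% of the controls.

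miR-448 was measured on separate miR arrays, and 8 of the 9 pups on them were also on an mRNA array. The miR probe set carries no arm in its name, so which arm it reads was not settled. In the controls miR-448 read 7.16, 6.76 and 7.61 (log2) in replicates 16, 17 and 18, and Acox2 differed from its own control mean by 0.41, 0.35 and -0.50 in the same pups. In MS5 replicates 12 and 14 miR-448 differed from its control mean by -2.37 and -2.47 (log2), whereas Acox2 differed by -0.22 and -1.60. In MS5 replicate 9 miR-448 differed by 0.07 and Acox2 by -1.68. In MS2 replicates 3 and 4 miR-448 differed by 0.34 and -0.26, and Acox2 by -0.01 and -1.14. Of the 2 pups with low miR-448, replicate 12 had Acox2 within the control range and replicate 14 below it. No correlation is given over so few pups in separate groups.

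Pla2g5 was read by 2 probes on the minus strand of chromosome 4 (mm9). A_55_P1962693 lies at chr4:138355185-138355244 and is listed from position 2050 of the transcript. A_51_P207892 is listed from position 532, and its listing runs over 750 bases of the genome, chr4:138356545-138357294, although the probe has 60. They are printed because the 2 probesets gave differences of unlike size. Capitals mark AATAAA in the first, of which 30 bases are shown.
A_55_P1962693, bases 31 to 60: tttagtgttcaaacattttctaAATAAAgc
A_51_P207892: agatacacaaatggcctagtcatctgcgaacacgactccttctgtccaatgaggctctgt

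At A_55_P1962693, Con replicates 15, 16, 17, 18 and 19 read 8.60, 9.44, 9.46, 8.92 and 9.27 (log2 level). MS2 replicates 1, 3, 4, 5 and 7 read 9.27, 9.02, 8.57, 9.02 and 8.87. MS5 replicates 8, 9, 12, 13 and 14 read 8.84, 7.60, 8.79, 8.41 and 7.19. As for Bhmt, MS5 replicates 9, 13 and 14 lay below every control and replicates 8 and 12 among them. The MS5 mean differed by -0.97 (SE 0.29, n = 5 per group), or 1.96-fold, and MS5 replicate 14 stood at 25.9% of the controls.

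At the second probeset all 15 arrays lay between 6.29 and 6.90, and the difference was -0.17 (SE 0.09). MS5 replicates 9 and 14 were the lowest arrays here too, at 6.32 and 6.29 against 6.34 in the lowest control. The difference was -0.36 with an offset of 0 and -0.42 with the processed signal. The correlation between the 2 Pla2g5 probesets over the 15 arrays was r = 0.71.

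Lbp was read by 1 probe, A_51_P454008, on the plus strand. Its mm9 listing, chr2:158154142-158157684, runs over 3543 bases for a probe of 60, shown here as the only sequence that stands for this gene.
A_51_P454008: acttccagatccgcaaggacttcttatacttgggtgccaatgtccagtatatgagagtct

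Con replicates 15, 16, 17, 18 and 19 read 9.96, 11.03, 10.93, 9.99 and 10.51 for Lbp (log2 level). MS2 replicates 1, 3, 4, 5 and 7 read 10.61, 10.67, 9.79, 10.38 and 10.03. MS5 replicates 8, 9, 12, 13 and 14 read 10.18, 8.89, 10.58, 9.65 and 8.49. MS5 replicate 12 was above the control mean by 0.10, whereas replicate 14 stood at 25.1% and replicate 9 at 33.2%. The MS5 mean differed by -0.92 (SE 0.36, n = 5 per group), or 1.90-fold.

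**Figure D2:**
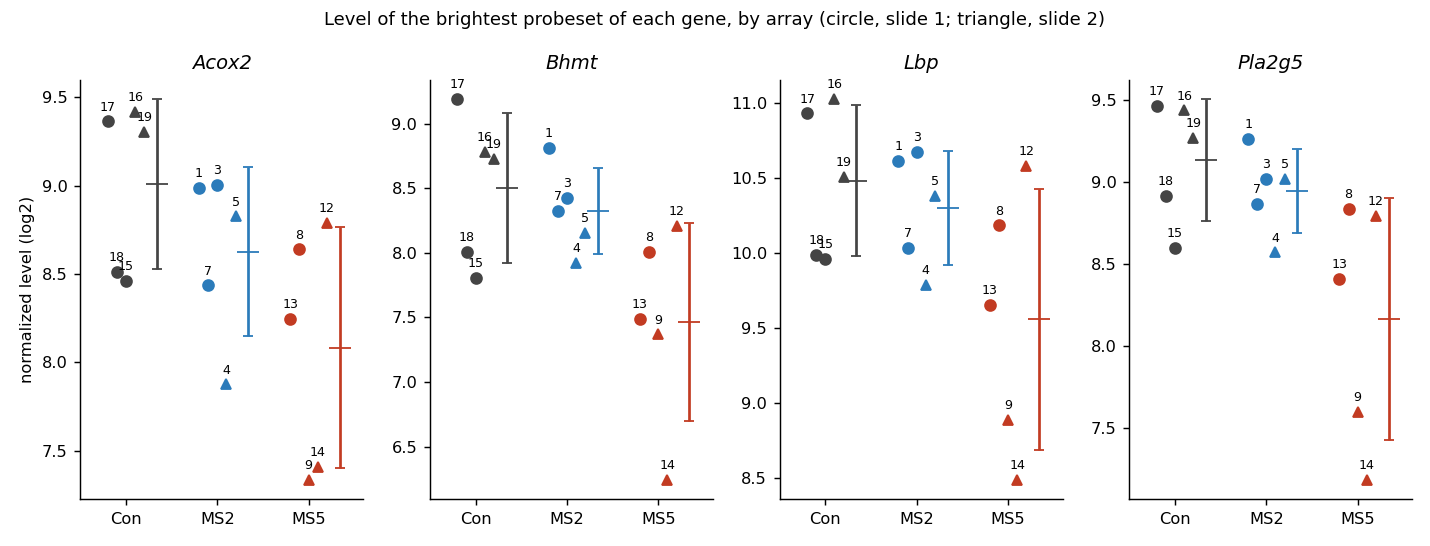
Normalized level (log2, vertical axis) of the brightest probeset of each gene in the Con, MS2 and MS5 groups, 1 point per array labelled with its replicate number, circles for slide 1 and triangles for slide 2. Bars give the mean and SD of 5 arrays. MS5 replicates 9 and 14 are the lowest 2 arrays in every panel, and replicates 8 and 12 lie within the controls.

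The 4 genes moved together from array to array. MS5 replicates 9 and 14 were the 2 lowest of the 15 arrays at 7 of the 7 probesets, and replicate 14 was the lowest at 6. MS5 replicate 13 lay below every control at 6 of the 7, whereas replicates 8 and 12 did so at 0. MS2 replicate 4 lay below every control at 5 of the 7. Averaged over the brightest probeset of each gene, MS5 replicates 14, 9, 13, 8 and 12 stood at 25.9, 35.8, 56.1, 77.6 and 87.6% of the controls. The controls themselves ran from 67.1% in replicate 15 to 137% in replicate 17. Between the 4 genes, r over the 15 arrays was 0.89 to 0.97 for the 6 pairs, and 0.84 to 0.96 over deviations from the group means, as a description of arrays that share library and dissection. In 0 of the 7 member probesets did all MS5 arrays lie below all Con arrays, beside 0.526% of all probesets.

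The size of the MS5 difference rested in part on its 2 lowest arrays. Without replicate 9, the array with high Xist, it was -1.01 for Bhmt, -0.74 for Acox2, -0.83 for Pla2g5 and -0.76 for Lbp. Without replicate 14 it was -0.73, -0.76, -0.73 and -0.66 in the same order. All remained negative, and each was within 1.5 times the value over 5 arrays. The 2 arrays were left out 1 at a time and not together, so these values do not show the difference without both. On MS5 replicates 13, 8 and 12 the mean over the 4 genes differed from Con by -0.83, -0.37 and -0.19. Lbp was no longer past the threshold without MS5 replicate 9 or 14, nor without Con replicate 16 (-0.79) or 17 (-0.81). The 4 other probesets past the threshold stayed past it when any 1 Con or MS5 array was left out.

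The lower dose was a measure that the choice of the genes did not use, except that it shares the Con arrays. In MS2 against Con, 0 of the 7 member probesets passed the threshold in either direction, beside 0.00718% lower and 0.0162% higher among all probesets. The difference was -0.39 for Acox2 (95% interval -1.07 to 0.30), with an adjusted p of 0.97 in limma and p = 0.238 in a two-sided exact permutation test. It was -0.17 for Bhmt at A_55_P2105180 (-0.90 to 0.55), with an adjusted p of 0.982 in limma and an exact permutation p of 0.556. For Lbp it was -0.19 (-0.95 to 0.58), with an adjusted p of 0.982 in limma and an exact permutation p of 0.524. For Pla2g5 at A_55_P1962693 it was -0.19 (-0.80 to 0.43), with an adjusted p of 0.975 in limma and an exact permutation p of 0.349. These intervals include no change and, for each of the 4 genes, a fall of 1.5-fold, which is -0.58 on the log2 scale. At the other 3 probesets the difference was -0.10 to -0.13, with exact permutation p from 0.452 to 0.635. Over all probesets 0 passed an adjusted p in limma in this contrast and 2324 had an unadjusted p under 0.05. Without MS2 replicate 4 the differences were -0.20 for Acox2, -0.07 for Bhmt, -0.06 for Lbp and -0.09 for Pla2g5. In 0 of the 7 probesets did all MS2 arrays lie below all Con arrays, beside 0.39% of all probesets.

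Between the doses, the MS5 mean differed from the MS2 mean by -0.86 for Bhmt, -0.78 for Pla2g5, -0.74 for Lbp and -0.54 for Acox2 (log2 difference). This contrast uses the MS5 arrays that chose the genes and is not tested. At the study's threshold 3 of the 7 member probesets were lower in MS5 than in MS2, namely 2 of Bhmt and 1 of Pla2g5, where 0.111% of all probesets were. Without MS5 replicate 14 the differences were -0.56 for Bhmt, -0.54 for Pla2g5, -0.47 for Lbp and -0.37 for Acox2, and 0 of the 7 passed. Without MS5 replicate 9, the array with high Xist, they were -0.84, -0.64, -0.57 and -0.35 in the same order. Without MS2 replicate 1 both Bhmt probesets were no longer past the threshold, at -0.74 and -0.66. Without MS2 replicate 4 the differences of Acox2 and Lbp were past it, at -0.73 and -0.87. The same held without MS5 replicate 12, at -0.72 and -0.99. Without MS5 replicate 8 Lbp was past it, at -0.89, and Acox2 was not, at -0.68. MS5 replicates 9 and 14 lay below all MS2 arrays at 7 of the 7 probesets.

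The slide moved with the values. With the slide as a block the MS5 difference was -0.90 for Acox2, -1.003 for Bhmt, -0.89 for Lbp and -0.93 for Pla2g5. Within slide 1, which held 2 MS5 and 3 Con arrays, the differences were -0.34 for Acox2, -0.59 for Bhmt, -0.37 for Lbp and -0.37 for Pla2g5. Within slide 2, which held 3 MS5 and 2 Con arrays, they were -1.52, -1.48, -1.45 and -1.49 in the same order. The direction was the same on both slides and the size was not. MS2 against Con changed direction between slides, with 0.03, 0.19, 0.15 and 0.06 on slide 1 and -1.01, -0.72, -0.68 and -0.56 on slide 2. Controls 15 and 18, the low ones, were on slide 1, and MS5 replicates 9 and 14 and MS2 replicate 4 were on slide 2. The part of the slide in these differences was not tested beyond these values.

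**Figure D3:**
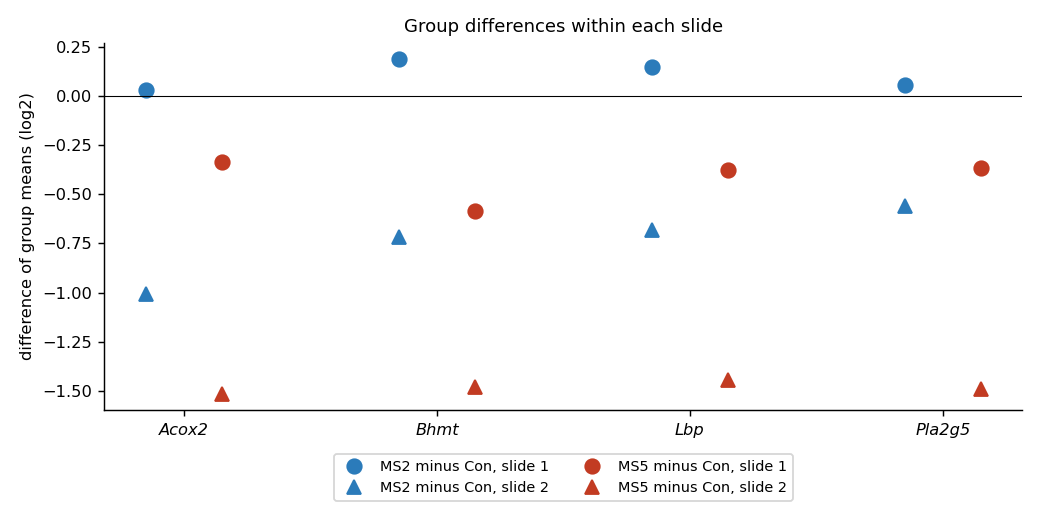
Difference of group means (log2, vertical axis) within slide 1 (circles) and within slide 2 (triangles) for each gene, MS2 minus Con in blue and MS5 minus Con in red. MS5 minus Con is -0.34 to -0.59 on slide 1 and -1.45 to -1.52 on slide 2, and MS2 minus Con is above 0 on slide 1 and below 0 on slide 2.

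The other genes of the same pathways were read from lists, drawn up for methionine and betaine metabolism (Bhmt), peroxisomal fatty acid oxidation and bile acid synthesis (Acox2), phospholipases A2 and eicosanoid synthesis (Pla2g5), and lipopolysaccharide recognition and the acute phase (Lbp). Without the 4 members they held 125 genes and 171 probesets, of which 133 were well above background on every array. In MS5 against Con 0 were lower and 0 higher at the threshold, beside 0.183% and 0.0449% of all probesets, shares so small that 0 of 171 is near them. In the same contrast 0 passed an adjusted p in limma, whereas 10 (5.85%) had an unadjusted p under 0.05, as 3.91% of all probesets did. The median difference was -0.01 over the lists and 0.00033 over all probesets. In MS2 against Con 0 were lower and 0 higher at the threshold.

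In the methionine and betaine list, differences between MS5 and Con ran from -0.27 to 0.13 over 42 probesets. The lowest was Chdh, which makes betaine from choline, at -0.27 (SE 0.05, adjusted p = 0.857 in limma) at 1 of its 3 probesets, the other two being at -0.05 and 0.04. The highest was Sardh, sarcosine dehydrogenase, at 0.13 (SE 0.06, adjusted p = 1.00 in limma). Dmgdh, the dehydrogenase that takes the dimethylglycine Bhmt leaves behind, was at -0.26 (SE 0.12).

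The peroxisomal list, with 38 probesets, ran from -0.24 for Hacl1, which shortens 2-hydroxy and branched fatty acids, to 0.38 for Slc27a2, a very long-chain acyl-CoA synthetase. The 2 probesets of Acox3, another peroxisomal acyl-CoA oxidase, were at -0.07 and 0.27.

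In the list around Lbp, 47 probesets ran from -0.25 for Socs3, a feedback inhibitor of cytokine signalling, to 0.39 for complement C3. Of the partners of Lbp in lipopolysaccharide recognition, Cd14 was at 0.05 (SE 0.08), Tlr4 at -0.04 (SE 0.08) and Ly96, the co-receptor of Tlr4, at -0.17 (SE 0.10). In the phospholipase and eicosanoid list, 44 probesets ran from -0.34 for Pla2g2e, at a probeset well above background on 1 array, to 0.35 for Ptgds, the prostaglandin D synthase (SE 0.48). Since liver is a main site of Bhmt, Acox2 and Lbp, 12 hepatocyte markers were read too. Their 16 probesets, of which 7 were well above background on every array, ran from -0.16 to 0.12, with 0 past the threshold.

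The values of the member genes moved with markers of the choroid plexus and of the ventricle wall. Of 28 choroid plexus markers with 42 probesets, 23 genes and 30 probesets were lower in MS5 at the threshold and 0 higher, with a median difference of -1.11 (0.00033 over all probesets). This list was written with earlier results of these arrays known and is no independent support. All 28 genes were above background. Their signal, summed per array, ran from 307570 to 477665 in Con, from 328726 to 427993 in MS2 and from 35884.5 to 378779 in MS5. The sum is of unlogged signal at 1 probeset per gene, so bright genes weigh most. The marker Ttr, at 17.66 to 18.15 (log2 level) in Con, makes up a large part of it. Without MS5 replicate 9 the count of lower probesets was 17, and without MS5 replicate 14 it was 18. The lists for meninges, astrocytes, hippocampal neurons, microglia and blood had 0 probesets past the threshold, with medians of -0.17, 0.04, -0.08, 0.04 and -0.38.

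Ttr, the transthyretin that defines choroid plexus epithelium, lay further below its control mean than the members did on MS5 replicates 14 and 9. It differed by -5.11 on MS5 replicate 14 and by -2.02 on replicate 9, against -0.45, -0.06 and -0.03 on replicates 13, 8 and 12 (log2 difference). Folr1, a folate receptor of that epithelium, differed by -4.77 and -2.99 on replicates 14 and 9. The mean of the 28 markers differed by -2.60, -1.86, -0.75, -0.31 and -0.11 on replicates 14, 9, 13, 8 and 12. Over the 4 members the mean differed by -1.95, -1.48, -0.83, -0.37 and -0.19 in the same order. The order of the 5 MS5 arrays was the same for both. The part of choroid plexus tissue in the members' values was not tested, and in bulk RNA fewer cells of a type and less RNA per cell cannot be told apart.

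**Figure D4:**
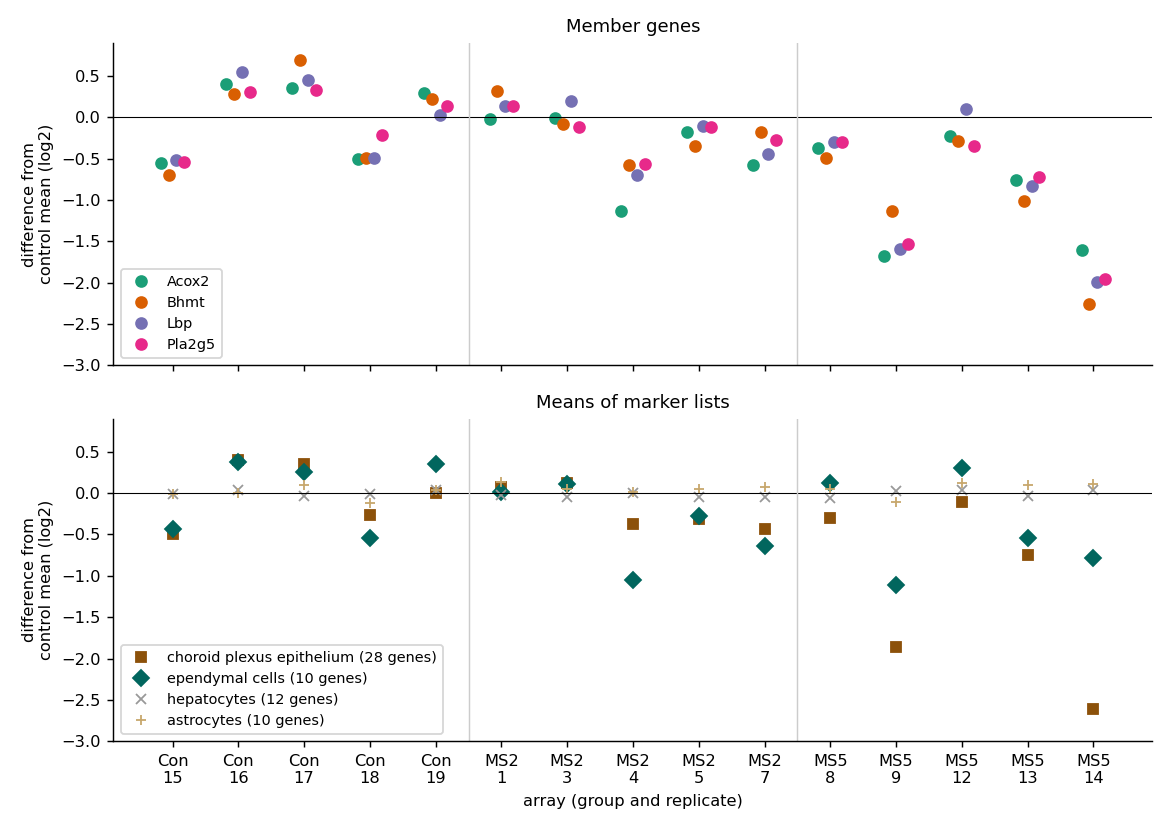
Difference from the control mean (log2, vertical axis) on each of the 15 arrays (horizontal axis), for the brightest probeset of each of the 4 genes (upper panel) and for the means of 4 marker lists (lower panel). MS5 replicates 9 and 14 are low for the 4 genes and for choroid plexus markers, and astrocyte and hepatocyte markers stay within 0.13 of the control mean.

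Correlations with the marker means were computed for each probeset. With the mean of the choroid plexus markers the correlation of Acox2 over 15 arrays was r = 0.90, and 0.86 over deviations from the group means. With the mean of 10 ependymal markers, chiefly genes of motile cilia such as Foxj1, it was 0.91 and 0.97. For Pla2g5 the values were 0.98 and 0.96 with the choroid plexus markers and 0.74 and 0.83 with the ependymal ones. For Lbp they were 0.97 and 0.95, and 0.84 and 0.91. For Bhmt at A_55_P2105180 they were 0.93 and 0.88, and 0.70 and 0.77. The order within groups was the other way at 2 further probesets, with 0.83 for choroid plexus and 0.85 for ependymal markers at A_55_P2103963 of Bhmt, and 0.60 and 0.62 at A_51_P207892 of Pla2g5. The 10 Con and MS2 arrays leave out the MS5 group by which the genes were chosen. Over them r with the choroid plexus and the ependymal markers was 0.90 and 0.89 for Pla2g5 and 0.95 and 0.92 for Lbp. For Bhmt at A_55_P2105180 it was 0.88 and 0.81, and for Acox2 0.85 and 0.99. All the correlations are descriptions over arrays in separate groups, with no test of the difference between them.

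On MS2 replicate 4, the array low in neuron markers, the ependymal mean was -1.05 and Acox2 -1.14, whereas the choroid plexus mean was -0.37 and the other members ran from -0.56 to -0.69 (log2 difference from Con). In MS5 the ependymal means of replicates 8 and 12 were 0.12 and 0.31, above the control mean and within the control range, and Acox2 was at -0.37 and -0.22. Of the 12 ependymal probesets 0 passed the threshold in MS5, with a median difference of -0.38, and 0 in MS2, with a median difference of -0.39. Their summed signal was 14971.4 to 29268 in Con, 10383.6 to 24046.8 in MS2 and 9873.27 to 28356.9 in MS5. The part of ependymal tissue in the Acox2 values was not tested.

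**Figure D5:**
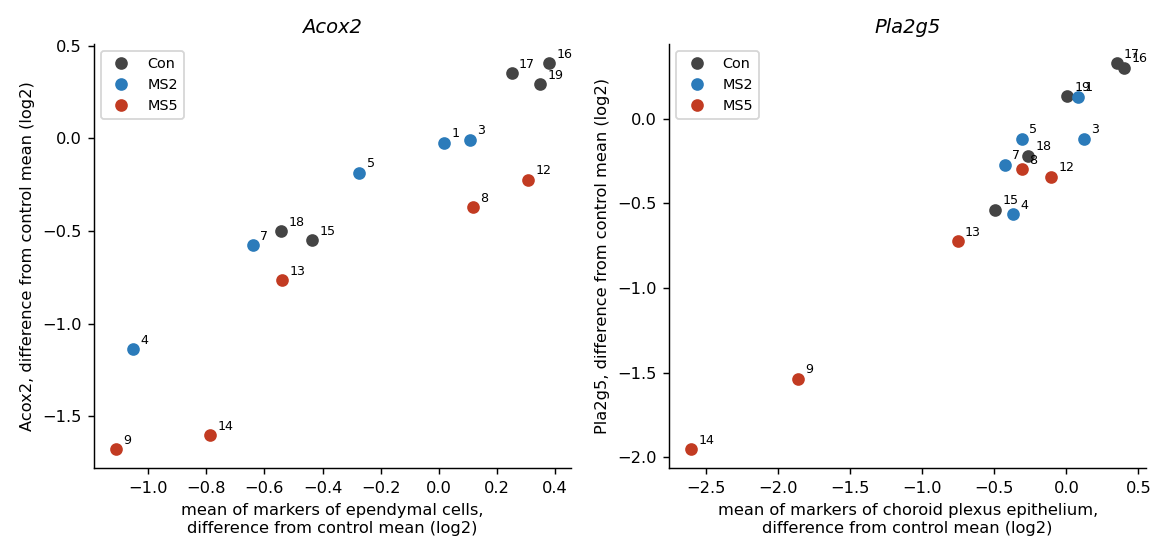
Left, Acox2 against the mean of 10 ependymal markers, and right, Pla2g5 against the mean of 28 choroid plexus markers, both axes as log2 difference from the control mean, 1 point per array labelled by replicate and coloured by group. For both genes each of the 5 MS5 arrays lies lower than the Con and MS2 arrays with the nearest marker mean. In the right panel MS5 replicates 9 and 14 have marker means of -1.86 and -2.60. These are outside the range of the other groups, whose lowest means are -0.49 in Con and -0.43 in MS2. Both genes were chosen for low MS5 values, and both lists were written with earlier results of these data known. The positions are therefore a description and were not tested.

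The 5 probesets of other genes most like each member over the 15 arrays were largely markers of choroid plexus, except for Acox2. For Pla2g5 they were Tmem72, Steap1, F5, Calml4 and Folr1 (r = 0.98 to 0.99), and 5 of 5 were on the choroid plexus list. For Lbp they were Col8a2, Sostdc1, Folr1, Sulf1 and Msx1 (0.98 to 0.99), of which 4 were on it. For Bhmt they were Msx1, 2 probesets of Abca4, Kcnj13 and Hoxb3 (0.95 to 0.96), of which 4 were on it. For Acox2 they were Ccdc135, a component of motile cilia, Lrrc34, Slc39a4, Pih1d2 and a transcript without a gene name (0.97 to 0.98), and 0 were on it. Over deviations from the group means the values for Pla2g5, Lbp, Bhmt and Acox2 were 0.96 to 0.98, 0.97 to 0.98, 0.92 to 0.94 and 0.96 to 0.99. The MS5 difference of the probesets like Acox2 was -0.37 to -0.72, and of those like Pla2g5 -1.08 to -1.49. The choroid plexus list, which held 42 of the 55681 probesets, was written with earlier results of these arrays known. Likeness was read over arrays that include the MS5 ones by which the members were chosen. The counts on the list are therefore a description and no independent support.

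Since the 4 genes moved together, the sequence before their start sites was searched for a few short motifs. RefSeq (GRCm38.p6) gave 1 promoter for Bhmt and 2 each for Acox2 and Pla2g5, and Lbp had no entry. On both strands of the 250 bases before the start, the STAT site TTCNNNGAA, the C/EBP site TTNNGNAAT and the promoter box TATAAA were found in 0 of these 5 windows, against 7.02, 10.2 and 12.4% of 32841 windows. The nuclear receptor half-site AGGTCA was found in 2, Bhmt with 3 matches and the second Pla2g5 promoter with 1, against 14% of all windows. TAATCC, the OTX site, was found once, in the second Pla2g5 promoter, against 6.25% of all windows. The 2 windows with matches are shown, with the matched letters in capitals (TGACCT and GGATTA are AGGTCA and TAATCC read on the other strand).
Bhmt, chr13:93637759-93638008, minus strand: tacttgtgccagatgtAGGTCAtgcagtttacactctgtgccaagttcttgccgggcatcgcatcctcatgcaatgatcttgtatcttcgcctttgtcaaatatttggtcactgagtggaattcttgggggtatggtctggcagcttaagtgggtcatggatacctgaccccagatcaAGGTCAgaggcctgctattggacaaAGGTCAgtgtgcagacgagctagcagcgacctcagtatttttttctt
Pla2g5, chr4:138819258-138819507, minus strand: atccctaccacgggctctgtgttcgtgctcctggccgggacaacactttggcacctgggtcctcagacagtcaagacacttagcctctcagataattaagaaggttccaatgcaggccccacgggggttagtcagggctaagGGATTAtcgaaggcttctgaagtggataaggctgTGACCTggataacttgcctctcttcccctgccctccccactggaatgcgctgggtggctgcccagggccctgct

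In the Bhmt promoter the matches lay 234, 72 and 47 bases before the start, and in the Pla2g5 promoter the OTX letters lay 108 and the half-site 74 bases before it. Between them the promoters of the members shared no motif that was in all 3 genes. A match here is letters only, and the arrays measured no factor at these windows.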

How the data were processed

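Hippocampal mRNA of 15 pups was measured on 1-colour Agilent arrays and miRs of 9 pups on Affymetrix arrays. The authors deposited scanner output with an intensity for each spot (Feature Extraction 10.7.1.1) and a series table of log2 values, for which they had used normexp and then quantile normalization. The deposited miR table gives log2 values after normalization and median polish by the authors (RMA per the labels).

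Mean intensities were corrected here against the median background around each spot (normexp, offset 50), and all 62976 spots of an array entered the quantile normalization. After conversion to log2 the control spots were left out, and replicate spots were averaged, which gave 55681 probesets. The members' values matched the series table within 4.5e-09. The 3 groups were compared in 1 fit with limma 3.58.1 in R 4.3.3 (lmFit and eBayes), with Benjamini-Hochberg adjustment over all probesets. The two-sided exact permutation test ran over 252 assignments of 5 against 5 arrays, so its smallest p was 0.00794. Correlations are Pearson's r.

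The members, the gene lists, the marker lists and the motifs were chosen with earlier results of these data known. Named were the members' probesets, list genes past the threshold, otherwise the lowest and highest of each list, and the 5 probesets most like each member. Further genes named beside them were chosen after their values were seen. Each array held 1 pup, and the number of arrays limits the precision. Littermates were not marked in the labels.

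Alternatives were array weights, no normexp offset, the processed signal of the scanner less the 75th percentile of its array, the slide as a block, the authors' values, only the 2 groups compared, 1 probeset per gene, a background filter, values within each slide, and leaving out each array of the 2 groups compared. Leaving out MS5 replicate 9 and MS2 replicate 4 together was added after seeing the data. The fit was tested on simulated data with independent noise, in which only probesets of below-median spread were changed. The members moved together across arrays, so that simulation does not bear on them. PCR measurements were not used here.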

Additional observations from a re-analysis of the deposited data

Results flagged for a closer look

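Across the 7 member probesets and 3 groups of 5 arrays, 0 of 21 groups held an array whose gap to its nearest neighbour exceeded Dixon's critical share of 0.71 of the group's range.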

How the results depend on the processing

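In MS5 against Con, 135 of 135 alternative values over the 7 probesets were negative, and the 4 brightest probesets left their main value by more than the replicate SD only within slides. The genes were chosen by this contrast and the alternatives use the same arrays, so the common sign is no independent support. Within slide 1 the difference was -0.34 for Acox2 and -0.37 for Pla2g5, and within slide 2 -1.52 and -1.49. Leaving out single arrays gave -0.74 to -1.10 for Acox2, -0.73 to -1.23 for Bhmt, -0.66 to -1.18 for Lbp and -0.73 to -1.14 for Pla2g5. In MS2 against Con, 0 of 135 alternatives passed an adjusted p in limma, whose smallest value was 0.817, and 10 changed direction. Within slide 1 these were 0.030 for Acox2, 0.19 for Bhmt, 0.15 for Lbp, 0.057 for Pla2g5, and 0.23 and 0.10 at the Bhmt probesets A_55_P2105181 and A_55_P2103963. At A_55_P2105181 the others were 0.017 with array weights, 0.021 without Con replicate 17, and 0.0011 without MS2 replicate 4, alone or together with MS5 replicate 9. Single arrays left out gave -0.25 to 0.021 there. The MS5 minus MS2 values were negative in 119 of 119, in a contrast that uses the MS5 arrays by which the genes were chosen. The cause of these shifts was not tested.

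Among pathway list probesets, the count lower in MS5 was 1 with an offset of 0 (Bhmt2) and 2 with the processed signal (Bhmt2 and Fgg), and the count higher was 1 with the processed signal (Pla2g2a, not well above background on any array), against 0 and 0. Both stayed at 0 when any 1 of the 10 Con and MS5 arrays was left out. The count of lower choroid plexus probesets was 17 to 37 when single Con or MS5 arrays were left out and 16 with MS5 replicate 9 and MS2 replicate 4 both left out, against 30. Median centring left miR-448 at -2.38, -2.47 and 0.07 in MS5 replicates 12, 14 and 9. No paired analysis was possible because the mRNA groups share no replicate numbers. The differences of A_55_P2103963 and A_51_P207892 moved from -0.51 to -1.48 and from -0.17 to -0.42 with the scaling.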

Other observations

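The genes that flank the members on their chromosomes were also read. In the order of the RefSeq assembly (GRCm38.p6), 15 of the nearest genes, up to 2 on each side of each member, were on the array with 23 probesets. In MS5 against Con 0 were lower and 0 higher at the threshold, and differences ran from -0.34 to 0.40 (log2) with a median of -0.02.

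Bhmt2, the paralog of Bhmt that lies next to it and uses S-methylmethionine as methyl donor, was singled out after its values were seen. It read 6.52, 6.52, 6.66, 6.61 and 6.57 (log2 level) in Con replicates 15, 16, 17, 18 and 19. In MS2 replicates 1, 3, 4, 5 and 7 it read 6.62, 6.54, 6.37, 6.35 and 6.42. In MS5 replicates 8, 9, 12, 13 and 14 it read 6.34, 6.19, 6.30, 6.68 and 6.20. Of the 5 MS5 arrays 4 lay below every control, and replicate 13, which was low for Bhmt, was the highest of all. MS2 replicates 4, 5 and 7 also lay below every control. The difference between MS5 and Con was -0.24 (SE 0.08), and -0.59 with an offset of 0. Whether the probes of the 2 paralogs share signal was not tested.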
